A study of Mus musculus with 6 samples.

Results

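The collagen genes are the 40 genes of the mouse brown adipose tissue (BAT) count table whose symbol has the form of a collagen α chain (Col, a type number, the letter a and a chain number) and that had at least 10 counts summed over the 6 libraries. The rule used name and abundance, not the difference between the groups, but it was set with earlier results of these data known. Of 44 such symbols among the 35976 rows of the table, 4 fell below that minimum (Col26a1, Col9a1, Col6a4 and Col9a2). The 40 genes were divided into 11 fibrillar, 8 basement membrane and 21 other collagens, and 29 of them (8, 7 and 14) had enough counts to be tested between the groups.

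The study asked how BAT keeps producing heat in the cold when its nerve supply is gone, and what the soluble form of the receptor ST2 (sST2), encoded by Il1rl1, contributes. RNA-seq was performed on the BAT of 3 WT littermates and 3 sST2-KO mice, all 10-week-old males on the C57BL/6J background, bred from heterozygous parents. In the sST2-KO mice an intron of Il1rl1 was deleted in the germline by CRISPR/Cas9, which removes sST2 throughout the body and leaves the membrane receptor ST2L. The BAT of all 6 mice was surgically denervated, and the mice were kept at 30 °C for 7 days and then at 10 °C for 8 h. All 6 libraries are thus from denervated, cold-exposed BAT, and each comparison is between genotypes under those conditions, with no sham-operated or thermoneutral sample among them.

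Collagens are extracellular proteins in which α chains wind into a triple helix. Fibrillar collagens (types I, III, V and their rarer relatives) assemble into the fibrils that give connective tissue its tensile strength, and fibroblasts are their main source. Type IV collagen forms the sheet-like network of basement membranes, which surround each adipocyte and each blood vessel in BAT, and types XV and XVIII link that sheet to the tissue around it. Among the others, type VI makes beaded filaments between cells, the FACIT collagens (such as types XII, XIV and XVI) sit on the surface of fibrils, type VIII forms a network in vessel walls, and type VII anchors epithelial basement membranes to the fibrils beneath.

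Library totals ranged from 8159442 to 12874809 counts. Below, a level is the normalized CPM (counts per 1000000 after TMM scaling), the values of a group are given in the order of its replicates, and a log2 fold change is sST2-KO over WT. Genes with an adjusted p under 0.05 (edgeR's quasi-likelihood test, Benjamini-Hochberg over 14542 genes) and a fold change above 2 were called. The libraries differed in what they held besides collagens. The summed level of 12 skeletal muscle genes (Acta1 and Myh4 the most abundant) was 1344, 22.7 and 6.66 CPM in WT and 6982, 3752 and 16173 CPM in sST2-KO BAT. That of 10 macrophage genes was 832, 699 and 565 CPM in WT and 1446, 1326 and 5556 CPM in sST2-KO BAT. The label of the tissue was met by 10 brown adipocyte genes, among them Ucp1 and Fabp4, which summed to 19649, 22888 and 29735 CPM in WT and 8526, 8921 and 4342 CPM in sST2-KO BAT. In sST2-KO BAT 7 of the 10 were called lower, beside 7.1% of all genes tested. WT replicate 2 held 33870 counts of the liver gene Alb against 11 to 254 in the other libraries. Il1rl1 had 19, 19 and 6 counts in WT and 55, 69 and 142 in sST2-KO BAT, a count that adds sST2 to ST2L and so does not check the genotype.

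Collagen mRNA as a whole did not separate the groups. The 40 genes took up 0.858%, 0.509% and 0.387% of the counts in WT and 0.299%, 0.579% and 1.44% in sST2-KO BAT, so that the highest and the lowest library were both sST2-KO (exact two-sided permutation test, p = 0.8, where 3 mice against 3 cannot give a p below 0.1). Of the 29 genes tested, 0 were called higher and 2 lower in sST2-KO BAT, which is 6.90% of them, while 16.1% of all genes tested were called, 9.04% higher and 7.1% lower. At an unadjusted p under 0.05 in edgeR, 2 collagens were higher and 3 lower, beside 2846 higher and 2423 lower among all 14542 genes tested. The log2 fold change was positive in 13 and negative in 16 of the 29 genes, with a median of -0.14 against 0.03 over all genes tested. The groups did not overlap in 5 of the 29 genes (Col6a5 higher in sST2-KO BAT and Col7a1, Col28a1, Col27a1 and Col20a1 lower), or 17.2%, compared with 41.5% of all genes tested. By DESeq2, 6 of 39 collagens with an adjusted p were called (3 higher and 3 lower), beside 16.8% of all genes.

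**Figure D1:**
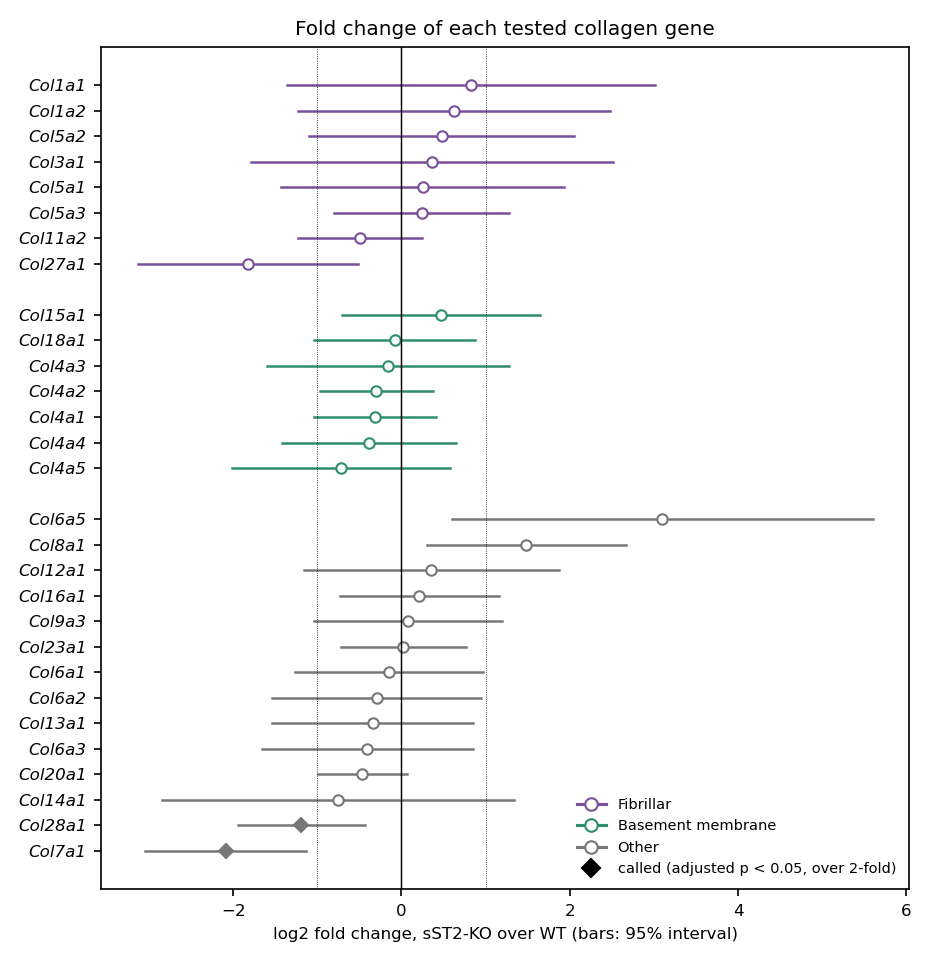
Log2 fold change (sST2-KO over WT, x axis) of the 29 tested collagen genes with its 95% interval (bars), ordered within the fibrillar, basement membrane and other collagens. Diamonds mark the 2 called genes, Col7a1 and Col28a1, and dotted lines a fold change of 2. The interval of Col1a1 runs from -1.36 to 3.02, whereas that of Col4a1 runs from -1.04 to 0.41.

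Collagens varied more between mice of the same genotype than the typical gene did. The median standard deviation within groups, on the scale log2(CPM + 0.5), was 0.70 over the tested collagens and 0.33 over all genes tested. It was 1.15 for the fibrillar collagens, 0.65 for the basement membrane collagens and 0.64 for the others. Of the 29 genes, 18 were lowest in sST2-KO replicate 1 and 10 were highest in sST2-KO replicate 3.

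Levels were compared between genes per kilobase of the canonical transcript. Col3a1, the chain of type III collagen, came first in both groups, at 308 ± 250.2 CPM per kb in WT and 396 ± 455 CPM per kb in sST2-KO BAT (mean ± SD, n = 3). In WT BAT it was followed by the type IV chains Col4a1 at 194 ± 48.2 and Col4a2 at 131 ± 27.8 CPM per kb, and then by the type I chains Col1a2 at 99.3 ± 61.4 and Col1a1 at 94.5 ± 58.0 CPM per kb. In sST2-KO BAT Col3a1 was followed by Col1a1 at 168 ± 212, Col4a1 at 156 ± 41.8, Col1a2 at 153 ± 164 and Col4a2 at 106 ± 27.3 CPM per kb. The ranges of mean ± SD overlapped between neighbours in these orders. Col6a1 and Col6a2 ranked 6 and 7 in both groups, at 49.0 ± 18.1 and 32.0 ± 11.1 CPM per kb in WT.

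**Figure D2:**
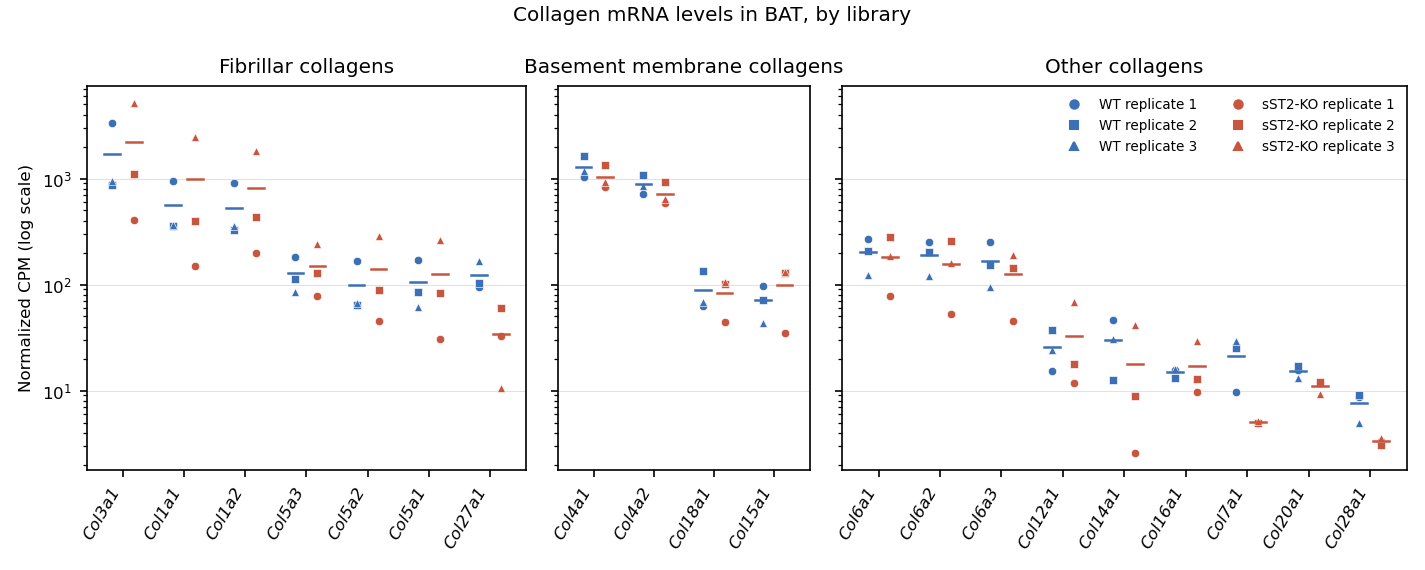
Normalized CPM (log y axis) of the 20 collagen genes described in full, in each of 3 WT (blue) and 3 sST2-KO (red) libraries, with symbols for the replicates and short lines for the group means. Col1a1, Col1a2 and Col3a1 are highest in sST2-KO replicate 3 and lowest in sST2-KO replicate 1, whereas the points of Col4a1 and Col4a2 lie close together.

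Both chains of type I collagen, the main protein of connective tissue fibrils, spread widely. Col1a1 (α1 chain, ENSMUSG00000001506.12, GRCm39 chr11:94827050-94843868, plus strand) was at 957, 357 and 367 CPM in WT and at 151, 396 and 2439.5 CPM in sST2-KO BAT. The highest and the lowest library were both sST2-KO, and they stood 16.2-fold apart. Its log2 fold change of 0.83 had an SE of 0.94 and a 95% interval from -1.36 to 3.02 (adjusted p = 0.563).

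Col1a2, the α2 chain that joins α1 in the same triple helix, was at 912, 329 and 356 CPM in WT and 199.7, 431 and 1826 CPM in sST2-KO BAT. The top and the bottom library were those of Col1a1, and the log2 fold change was 0.62 (SE 0.79, adjusted p = 0.612). Col3a1, which forms fine fibrils alone or together with type I, was at 3318, 872 and 944 CPM in WT and 404, 1109 and 5099.9 CPM in sST2-KO BAT. It varied 12.6-fold within sST2-KO BAT, and its log2 fold change was 0.36 (SE 0.92, adjusted p = 0.805).

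The type V chains, which help start fibrils and limit their width, followed a like order at lower levels. Col5a3 was at 184, 113 and 85.4 CPM in WT and 78.4, 129.7 and 243 CPM in sST2-KO BAT. Col5a2 was at 168, 64.8 and 67.4 CPM in WT and 45.0, 88.5 and 284 CPM in sST2-KO BAT. Col5a1 was at 169, 85.2 and 61.4 CPM in WT and 30.7, 83.9 and 262 CPM in sST2-KO BAT. For these 3 genes the WT libraries lay within the range of the sST2-KO libraries, and the log2 fold changes of 0.24, 0.48 and 0.25 had SEs of 0.45, 0.68 and 0.72 (adjusted p from 0.650 to 0.830).

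Col27a1, a fibrillar collagen known from cartilage, went the other way. It was at 95.4, 103 and 167 CPM in WT and at 32.8, 59.9 and 10.7 CPM in sST2-KO BAT, so that every WT library was above every sST2-KO library. The library highest in type I and type III collagen was the lowest in Col27a1. Its log2 fold change was -1.82 (SE 0.56, 95% interval -3.13 to -0.52), and the adjusted p was 0.058 in edgeR, which missed the threshold, and 0.00498 in DESeq2, which passed it. Without sST2-KO replicate 2 the gene was called by edgeR as well (adjusted p = 0.0332). So it was with no filter on low counts (log2 fold change -1.82, adjusted p = 0.0375). With any other library left out, edgeR did not call Col27a1 (adjusted p from 0.0586 to 0.184). Nor did edgeR call it with total counts (adjusted p = 0.0637) or with the replicate number as a block. Of 10 cartilage and tendon genes, 9 were in the table (Scx and Comp the most abundant), and they summed to 2.84 to 5.50 CPM in WT and 6.41 to 10.7 CPM in sST2-KO BAT, against 122 ± 39.6 and 34.4 ± 24.7 CPM of Col27a1 itself.

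Of the rarer fibrillar genes, Col11a2 was at 5.63 to 12.2 CPM, and its log2 fold change was -0.49 (adjusted p = 0.302). Col24a1 (3 counts in WT and 29 in sST2-KO BAT, 25 of them in replicate 3), Col11a1 (12 and 4 counts) and Col2a1, the chain of the main cartilage collagen (3 and 9 counts), had too few counts for the test. Over the 8 tested fibrillar collagens, 0 were called by edgeR, 1 had an unadjusted p under 0.05 and 1 was called by DESeq2, both times Col27a1, and the median log2 fold change was 0.31. Over all 14542 genes tested, edgeR called 16.1%, and 5269 had an unadjusted p under 0.05. Of the 8 fibrillar collagens, 6 were highest in sST2-KO replicate 3, 6 were lowest in sST2-KO replicate 1, and in 6 the highest WT library was replicate 1.

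The summed level of the 11 fibrillar collagens was 5813, 1935 and 2059.9 CPM in WT and 949, 2308 and 10174 CPM in sST2-KO BAT. In each group 1 library stood well above the other two, and the lowest and highest sST2-KO libraries were 10.7-fold apart. The ratio of the group means was 1.37 (log2 0.45, exact two-sided permutation test, p = 1.0). Without sST2-KO replicate 3 the log2 ratio was -1.01, so that 1 library set its direction.

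Markers of other cells moved with the fibrillar sum in part, and their part in it was not tested. sST2-KO replicate 3, the highest in fibrillar collagens, was also the highest in the macrophage and skeletal muscle sums given above, and mitochondrial genes took 6.80% of its counts against 11.8% to 16.6% in the others. WT replicate 1 was the highest WT library in both sums too. sST2-KO replicate 1, the lowest in fibrillar collagens, had 6982 CPM of skeletal muscle genes, more than any WT library.

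The fibroblast genes followed the order of the fibrillar collagens in part. The 10 genes on the list (Gsn and Ly6a the most abundant) summed to 3678, 2659 and 2807 CPM in WT and 2259, 3991 and 3196 CPM in sST2-KO BAT. Of the 10, 0 were called by edgeR, 3 had an unadjusted p under 0.05 and 2 were called lower by DESeq2. Among all 14542 genes tested, edgeR called 16.1%, and 5269 had such an unadjusted p. Without Gsn and Ly6a, which dominate the fibroblast sum, the other 8 genes summed to 628, 319 and 467 CPM in WT and 232, 421 and 537 CPM in sST2-KO BAT, so that WT replicate 1 was the highest and sST2-KO replicate 1 the lowest library. Of the 10 genes, 3 (Pdgfra, Mfap5 and Fbln1) were highest in sST2-KO replicate 3, as the type I and type III chains were, and 5 were lowest in sST2-KO replicate 1. Another 4 (Dpt, Clec3b, Dpp4 and Gsn) were highest in WT replicate 1. Pi16 was highest in WT replicate 3, and Ly6a and Cd34 in sST2-KO replicate 2. The grouping of these genes and the shortened sum were chosen after the values were seen. The fibrillar sum was 1.58, 0.728 and 0.734 times the fibroblast sum in WT and 0.420, 0.578 and 3.18 times in sST2-KO BAT, with all 10 fibroblast genes in the sum. In bulk tissue, fewer cells of a type and less RNA per cell cannot be told apart.

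The basement membrane collagens varied less between mice than the fibrillar ones, with a median standard deviation within groups of 0.65 against 1.15 on the log2 scale. It was 0.64 for the other collagens and 0.33 over all genes tested. For Col4a1 and Col4a2 alone it was 0.36 and 0.33. Col4a1, the α1 chain of type IV collagen (ENSMUSG00000031502.13), was at 1027, 1641 and 1185 CPM in WT and at 826, 1348 and 928 CPM in sST2-KO BAT. Its partner Col4a2 (ENSMUSG00000031503.15), which joins it in the same triple helix, was at 707, 1080.4 and 857 CPM in WT and 586, 928 and 639 CPM in sST2-KO BAT. Both were highest in WT replicate 2 and lowest in sST2-KO replicate 1, and the groups overlapped. The log2 fold change of Col4a1 was -0.31 (SE 0.31, 95% interval -1.04 to 0.41, adjusted p = 0.508), and that of Col4a2 was -0.30 (SE 0.29, 95% interval -0.97 to 0.38, adjusted p = 0.501). With 1 library left out, these values ran from -0.57 to -0.10 in Col4a1 and from -0.54 to -0.13 in Col4a2. In both genes the value was nearest to no change without WT replicate 2, the library rich in Alb. The part of that library's makeup was not tested.

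Col4a1 and Col4a2 lie head to head, and 369 and 354 of their exon bases face exons on the opposite strand, in part exons of the partner gene and in part of lncRNAs, and how reads there were counted is not given in the sources used here. Their ratio varied least of the 8 chain ratios examined, at 1.45, 1.52 and 1.38 in WT and 1.41, 1.45 and 1.45 in sST2-KO BAT. It spanned a 1.10-fold range over the 6 libraries, and the difference of the mean log2 ratios was -0.01 (exact permutation test, adjusted p = 0.9).

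Col18a1, whose C-terminal fragment is endostatin, was at 63.0, 135 and 69.0 CPM in WT and 44.5, 101 and 107 CPM in sST2-KO BAT (log2 fold change -0.08, SE 0.41, adjusted p = 0.906). Col15a1, its close relative, was at 97.7, 71.8 and 43.4 CPM in WT and 35.1, 128 and 132 CPM in sST2-KO BAT (log2 fold change 0.47, SE 0.51, adjusted p = 0.545). In neither gene did the groups separate. The chains typical of kidney and a few other basement membranes, Col4a3, Col4a4 and Col4a5, were at 0.660 to 7.28 CPM, with log2 fold changes of -0.16, -0.39 and -0.71 (adjusted p from 0.395 to 0.878). Col4a6 had 11 counts in WT and 7 in sST2-KO BAT.

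Of the 7 tested basement membrane collagens, 0 were called by edgeR or DESeq2 and 0 had an unadjusted p under 0.05. Among all 14542 genes tested, edgeR called 16.1%, and 5269 had such an unadjusted p. The log2 fold change was negative in 6 of the 7 collagens, with a median of -0.30, which lay between -0.54 (without sST2-KO replicate 2) and -0.11 (without WT replicate 1) when 1 library was left out. With total counts in place of TMM the median was -0.04, with Col4a1 at -0.06 and Col4a2 at -0.04. The median of all genes was then 0.29. The 8 genes summed to 1912, 2934 and 2164 CPM in WT and 1500.4, 2513 and 1813 CPM in sST2-KO BAT, a 1.96-fold range over the 6 libraries. The ratio of the means was 0.831 (log2 -0.27, exact two-sided permutation test, p = 0.4).

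Their partners in the basement membrane were read from a list of 16 laminins, nidogens, perlecan and their like. Of 14 tested, 0 were called higher and 1 lower by edgeR, beside 9.04% and 7.1% of all genes. At an unadjusted p under 0.05 in edgeR, 0 were higher and 5 lower, beside 2846 and 2423 of all 14542 genes tested. DESeq2 called 0 of the partners higher and 2 lower. The gene called by edgeR was Lama2, the laminin α2 chain of muscle and nerve. It was at 45.8, 19.0 and 27.6 CPM in WT and 11.4, 12.0 and 9.97 CPM in sST2-KO BAT (log2 fold change -1.47, adjusted p = 0.025). Lamb1, a laminin β chain found in most vessels, was at 320.3, 415 and 386 CPM in WT and 175, 251 and 188 CPM in sST2-KO BAT, with an adjusted p of 0.039 but a log2 fold change of -0.87, short of 2-fold. Perlecan (Hspg2) and Nid1 had log2 fold changes of -0.49 and -0.12 (adjusted p = 0.277 and 0.837). The median over the 14 was -0.31, close to that of the basement membrane collagens. The endothelial genes, whose cells make much of the basement membrane in BAT, summed to 1626, 2036 and 2049.9 CPM in WT and 1874, 2634 and 1477 CPM in sST2-KO BAT. Of these 10 genes, 1 was called higher (Emcn) and 1 lower (Kdr), beside 9.04% and 7.1% of all genes. The most abundant of the 10, Cdh5 and Pecam1, had log2 fold changes of -0.04 and 0.51 (adjusted p = 0.949 and 0.153). The mural cell genes, with Rgs5 and Des the most abundant, summed to 1007, 862 and 865 CPM in WT and 1272, 905 and 1974 CPM in sST2-KO BAT. The 1 of 10 called was Des, which skeletal muscle also expresses, higher in sST2-KO BAT, where 9.04% of all genes were called higher. Without Des, a choice made after the values were seen, the remaining 9 summed to 799, 799.5 and 731 CPM in WT and 501, 616 and 339 CPM in sST2-KO BAT. These sums did not overlap, as the groups did not in 41.5% of all single genes tested. Of the 10 mural cell genes, 8 had a negative log2 fold change (median -0.62), with Rgs5 at -0.95 (adjusted p = 0.074). At an unadjusted p under 0.05 in edgeR 5 of them were lower, beside 2423 of all 14542 genes tested. Of the 10 mural cell genes, 0 were called lower by edgeR, beside 7.1% of all genes, and 1 by DESeq2. The part of mural cells in the type IV result was not tested.

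The balance between the classes followed the fibrillar genes. Fibrillar collagens took up 67.4%, 34.8% and 43.9% of all collagen counts in WT and 35.3%, 41.2% and 80.1% in sST2-KO BAT. Basement membrane collagens took up 22.2%, 52.7% and 46.1% in WT and 55.8%, 44.9% and 14.3% in sST2-KO BAT. WT replicate 1 and sST2-KO replicate 3 were the fibril-rich libraries, and in the other 4 the basement membrane share was the larger one. The mean fibrillar share was 3.51 percentage points higher in sST2-KO BAT (exact two-sided permutation test, p = 0.8), and the mean basement membrane share differed by -2.0 points (p = 0.9 by the same exact test).

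**Figure D3:**
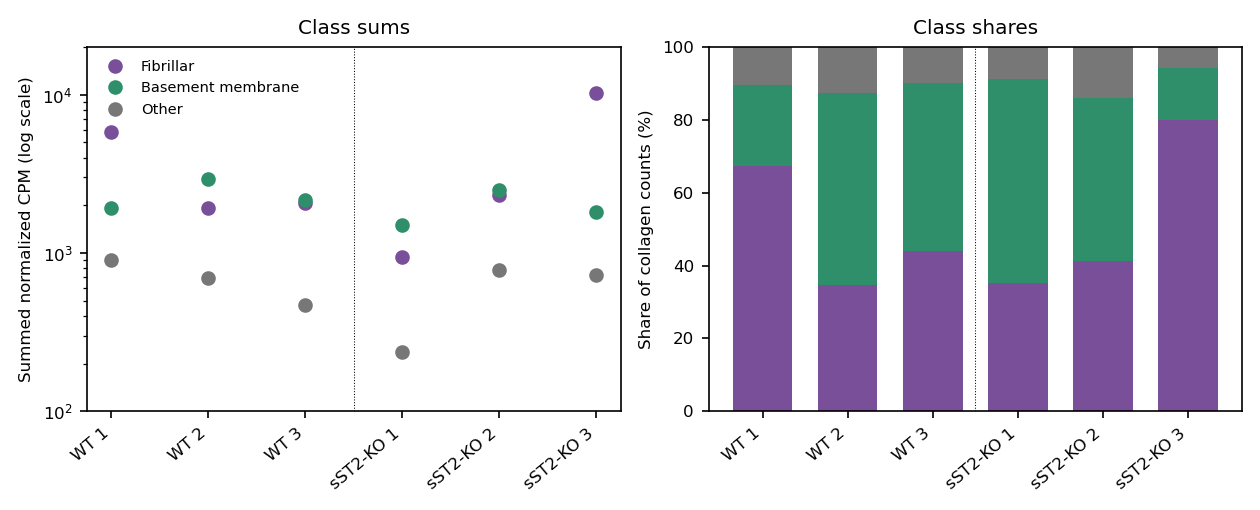
Left, summed normalized CPM of the fibrillar (purple), basement membrane (green) and other (grey) collagens in each library (log y axis). Right, the percentage of all collagen counts in each class. The fibrillar sum runs from 949 to 10174 CPM, both in sST2-KO libraries, and the basement membrane sum from 1500.4 to 2934 CPM.

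Ratios of counts within a library do not depend on how libraries were scaled. Col1a1 to Col1a2 was 1.05, 1.08 and 1.03 in WT and 0.755, 0.919 and 1.34 in sST2-KO BAT, a range of 1.05-fold and 1.77-fold within the groups. Col3a1 to Col1a1 was 3.47, 2.44 and 2.58 in WT and 2.68, 2.80 and 2.09 in sST2-KO BAT. Col4a1 to Col1a1, which sets the most abundant basement membrane chain against a type I chain, ran from 0.380 in sST2-KO replicate 3 to 5.47 in sST2-KO replicate 1, a 14.4-fold range. Of the 8 ratios, Col6a1 to Col6a2 alone did not overlap between the groups, at 1.08, 1.03 and 1.02 in WT and 1.45, 1.10 and 1.17 in sST2-KO BAT. Its exact permutation p of 0.1 was the smallest the design allows, and the adjusted p was 0.8. The other 7 ratios had an adjusted p of 0.9 by the same exact test.

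**Figure D4:**
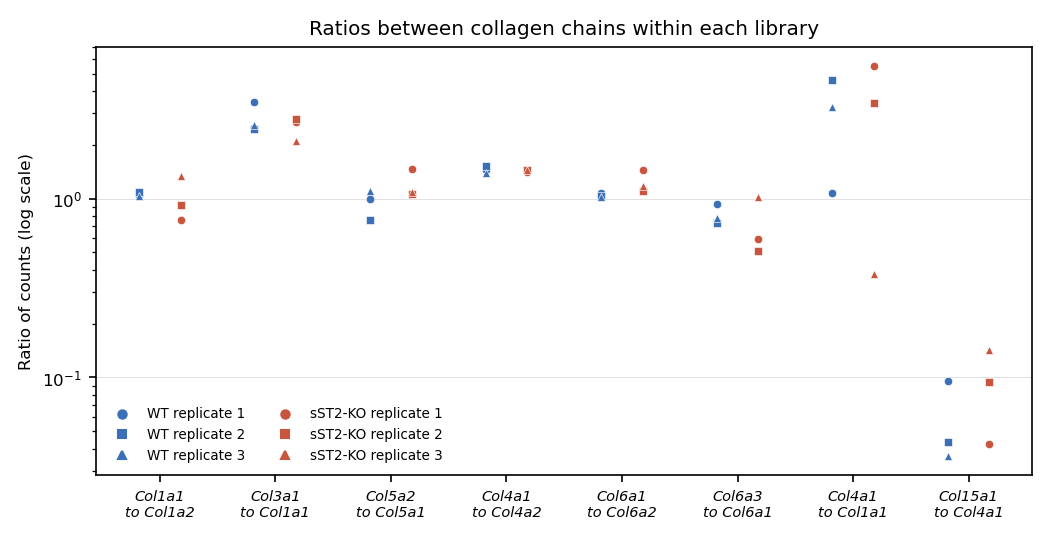
Ratios of counts between 8 pairs of collagen chains (log y axis) in each library, WT in blue and sST2-KO in red, with symbols for the replicates. Col4a1 to Col4a2 stays between 1.38 and 1.52, whereas Col4a1 to Col1a1 runs from 0.380 to 5.47.

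Among the other collagens the type VI chains were the most abundant, and their groups overlapped. Col6a1 was at 271, 209 and 123 CPM in WT and 77.4, 283 and 185 CPM in sST2-KO BAT. Col6a2 was at 251, 202 and 120.2 CPM in WT and 53.2, 257 and 158 CPM in sST2-KO BAT. Col6a3, the longest of these chains, was at 253, 153 and 95.3 CPM in WT and 45.7, 143 and 190.1 CPM in sST2-KO BAT. All were lowest in sST2-KO replicate 1, and the log2 fold changes of -0.14, -0.29 and -0.40 had SEs of 0.48, 0.53 and 0.54 (adjusted p from 0.628 to 0.854). The 21 other collagens, to which type VI contributed most, summed to 903, 697 and 469.6 CPM in WT and 238, 781 and 722 CPM in sST2-KO BAT (log2 ratio -0.25, exact permutation test, p = 0.7).

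The FACIT collagens that coat fibrils had wide spreads as well. Col12a1 was at 15.2, 37.5 and 24.0 CPM in WT and 11.9, 17.7 and 68.7 CPM in sST2-KO BAT (log2 fold change 0.36, SE 0.65, adjusted p = 0.729). Col14a1 was at 46.1, 12.6 and 30.9 CPM in WT and 2.58, 8.90 and 41.9 CPM in sST2-KO BAT (log2 fold change -0.75, SE 0.90, adjusted p = 0.583), and its log2 fold change was -2.42 without sST2-KO replicate 3 and -0.24 without sST2-KO replicate 1. Col16a1 was at 15.7, 13 and 15.9 CPM in WT and 9.69, 12.8 and 29.1 CPM in sST2-KO BAT (log2 fold change 0.21, SE 0.40, adjusted p = 0.743). In these 3 genes the groups overlapped and replicate 3 was the highest sST2-KO library. Col20a1 was at 15.7, 17.1 and 13.2 CPM in WT and 11.9, 12.1 and 9.28 CPM in sST2-KO BAT, and although every WT library lay above every sST2-KO library, the log2 fold change of -0.46 (SE 0.23) had an adjusted p of 0.182.

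Both called genes, Col7a1 and Col28a1, were lower in sST2-KO BAT and are expressed at low levels. Col7a1 (ENSMUSG00000025650.15, GRCm39 chr9:108782647-108813943, plus strand), whose protein builds the anchoring fibrils of epithelia, was at 9.70, 25.0 and 29.6 CPM in WT and at 4.95, 4.98 and 5.13 CPM in sST2-KO BAT. The sST2-KO libraries were nearly alike, and each was below the lowest WT library. Its log2 fold change was -2.09 (SE 0.41, 95% interval -3.05 to -1.13), with an adjusted p of 0.018 by edgeR and 4.62e-05 by DESeq2. The edgeR call was lost without WT replicate 2 (adjusted p = 0.0571) and without WT replicate 3 (adjusted p = 0.0761), while the log2 fold change stayed between -2.44 and -1.79 whichever library was left out.

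Col7a1 is best known from skin, and epidermis genes were read beside it. The 10 on the list (Krt10 and Trp63 the most abundant) summed to 2.26 to 2.61 CPM in WT and 2.37 to 7.70 CPM in sST2-KO BAT. At no count in any library were 5 of the 10, the keratins Krt5 and Krt14 among them. The 2 tested by edgeR, Trp63 and Krt10, had log2 fold changes of 2.67 and -0.30 (adjusted p = 0.059 and 0.663). DESeq2 called 1 gene of the list higher and 0 lower. The part of skin in the Col7a1 result was not tested. The annotation places 137 exon bases of Col7a1 opposite the lncRNA Gm69443. Whether strand was used when reads were counted is not given in the sources used here. Of the 29 tested collagens, 18 have some exon overlap with a gene on the opposite strand.

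Col28a1 (ENSMUSG00000068794.9, GRCm39 chr6:7997102-8192617, minus strand), a relative of type VI collagen known from the sheaths of peripheral nerves, was at 8.77, 9.05 and 4.93 CPM in WT and at 3.35, 3.09 and 3.56 CPM in sST2-KO BAT. The groups did not overlap, and the log2 fold change was -1.19 (SE 0.32, 95% interval -1.94 to -0.44, adjusted p = 0.041). The call was lost whichever library was left out, with adjusted p from 0.0674 to 0.118, and also with no filter on low counts (adjusted p = 0.0586), with total counts (0.105) and with the replicate number as a block (0.102).

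Genes of Schwann cells, the glia of peripheral nerves, were read beside Col28a1. Of 10 on the list, 9 were tested, and 2 were called lower and 0 higher, where 7.1% of all genes were called lower. The log2 fold change was negative in 8 of the 9 and positive in Ncam1 (0.53, adjusted p = 0.300). S100b was at 25.7, 13.9 and 21.9 CPM in WT and 1.95, 4.51 and 0.691 CPM in sST2-KO BAT (log2 fold change -3.13, adjusted p = 0.017), and Sox10, a transcription factor of the lineage, had a log2 fold change of -1.70 (adjusted p = 0.036). The most abundant ones, Pmp22 and the myelin gene Mbp, had log2 fold changes of -0.43 and -0.10 (adjusted p = 0.339 and 0.810). The list summed to 189.6, 189 and 198 CPM in WT and 109, 165 and 107 CPM in sST2-KO BAT, and within the groups it did not keep the order of Col28a1: sST2-KO replicate 2 was the lowest in Col28a1 and the highest sST2-KO library in the sum, and WT replicate 3 was the lowest WT library in Col28a1 and the highest in the sum. Its part in the result was not tested.

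To show what lies upstream of the called genes, the 250 bases before the annotated starts of Col7a1 and Col28a1 are printed with those of Col1a1, the type I chain whose libraries were 16.2-fold apart. Matches to 5 short motifs, each searched on both strands, are in capitals. They were the CCAAT box, spelled as its name, and the GC box, spelled GGGCGG. The TATA box was spelled TATAAA, the core of SOX sites ACAAAG, and the SMAD box, bound by factors of TGF-β signaling, CAGAC. No match overlapped another in these windows. The sequences are from GRCm39, 5′ to 3′ on the strand of the gene, at chr11:94826800-94827049 (Col1a1, plus), chr9:108782397-108782646 (Col7a1, plus) and chr6:8192618-8192867 (Col28a1, minus).
Col1a1: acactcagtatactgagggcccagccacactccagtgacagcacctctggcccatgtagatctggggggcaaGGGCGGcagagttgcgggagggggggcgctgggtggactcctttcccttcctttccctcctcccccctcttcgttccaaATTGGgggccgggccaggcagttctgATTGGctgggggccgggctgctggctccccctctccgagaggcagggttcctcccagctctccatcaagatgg
Col7a1: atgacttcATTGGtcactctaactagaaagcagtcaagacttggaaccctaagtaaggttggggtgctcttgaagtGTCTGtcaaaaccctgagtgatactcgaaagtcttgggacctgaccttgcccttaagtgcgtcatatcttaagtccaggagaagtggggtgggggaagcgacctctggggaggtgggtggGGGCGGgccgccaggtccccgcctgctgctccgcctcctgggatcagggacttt
Col28a1: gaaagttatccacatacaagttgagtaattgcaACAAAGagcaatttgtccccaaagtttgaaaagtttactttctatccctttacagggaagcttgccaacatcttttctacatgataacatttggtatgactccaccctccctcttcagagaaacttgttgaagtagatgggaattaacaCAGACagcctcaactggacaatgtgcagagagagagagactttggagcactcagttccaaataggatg
The Col1a1 window, with 64.8% G and C, holds CCAAT in reverse (ATTGG) at 99 and 73 bases before the start and a GC box at 178. The Col7a1 window (55.6% G and C) holds ATTGG at 242, the SMAD box in reverse (GTCTG) at 174 and a GC box at 54. The Col28a1 window (40.4% G and C) holds ACAAAG at 217 and CAGAC at 68. Of windows of the same length before 21738 protein-coding genes, 36.5% held CCAAT, 36.3% a GC box, 11.9% TATAAA, 15.9% ACAAAG and 41.3% CAGAC, and of the 29 tested collagens 10, 14, 4, 6 and 13 did. A match describes letters in the window and is not a binding site.

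Col6a5 and Col8a1, with the largest positive log2 fold changes of the 29 tested collagens, were picked after their values were seen. Col6a5, a further type VI chain, was at 1.03, 0.565 and 0.123 CPM in WT and 1.39, 12.9 and 1.48 CPM in sST2-KO BAT. The groups did not overlap, but replicate 2 stood far above the other sST2-KO libraries. Its log2 fold change was 3.10 (SE 1.07, 95% interval 0.61 to 5.60, adjusted p = 0.079 by edgeR and 0.0102 by DESeq2), and it was 1.24 without that library.

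Col8a1, the type VIII chain of vessel walls, was at 4.66, 3.11 and 2.47 CPM in WT and 4.39, 8.43 and 16.1 CPM in sST2-KO BAT, where replicate 1 lay within the WT range. Its log2 fold change was 1.48 (SE 0.51, 95% interval 0.30 to 2.67), with an adjusted p of 0.077 by edgeR and 0.0332 by DESeq2. Without sST2-KO replicate 1 it was called by edgeR (adjusted p = 0.0354), and its log2 fold change fell to 0.89 without sST2-KO replicate 3.

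**Figure D5:**
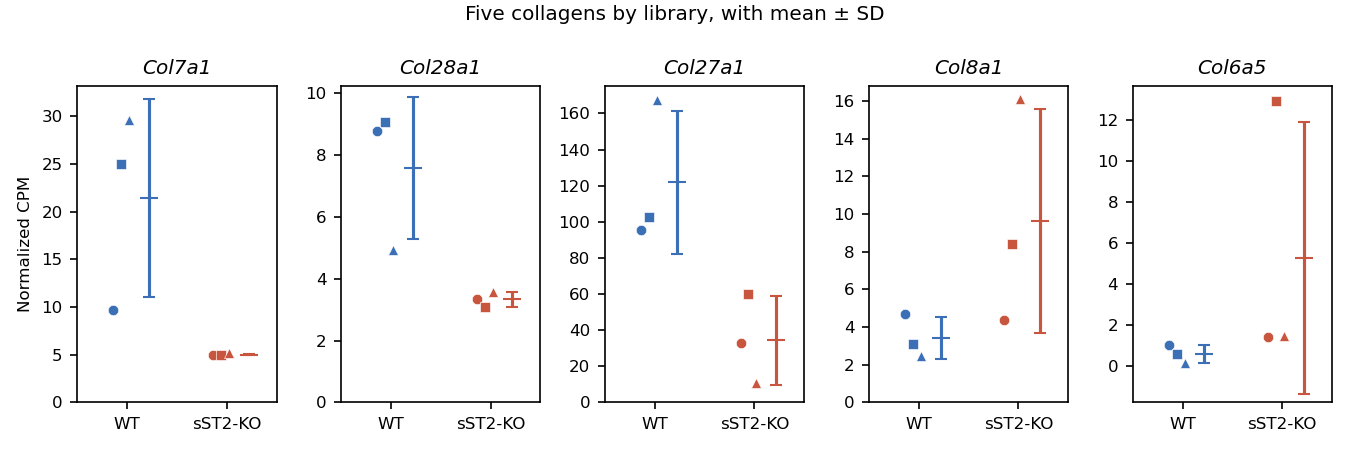
Normalized CPM of Col7a1, Col28a1, Col27a1, Col8a1 and Col6a5 in each library (points, WT blue and sST2-KO red, with symbols for the replicates) and the mean ± SD of each group (n = 3, the bar of Col6a5 reaching below 0). Every WT library is above every sST2-KO library in Col7a1, Col28a1 and Col27a1, whereas the sST2-KO mean of Col6a5 rests on replicate 2 at 12.9 CPM.

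The remaining collagens of this class were scarce. The transmembrane collagens Col23a1 and Col13a1 and the FACIT chain Col9a3 were at 0.976 to 6.79 CPM, with log2 fold changes of 0.02, -0.34 and 0.08 (adjusted p from 0.668 to 0.969). Col22a1, found at the junction of muscle and tendon, had 1 count in WT and 28 in sST2-KO BAT, a ratio of 25.1 with a counting interval from 4.14 to 1025, and it was spread over the 3 sST2-KO libraries at 1.05, 0.831 and 0.592 CPM. It was too rare for the main test, but was called higher by DESeq2 (adjusted p = 0.0219) and by edgeR with no filter (adjusted p = 0.0206). The skeletal muscle sum was also higher in each sST2-KO library than in any WT library, and its part in this result was not tested. Col19a1 had 11 counts in WT and 26 in sST2-KO BAT, 19 of the latter in replicate 1 and 3 and 4 in the other two (ratio 2.12, counting interval 1.01 to 4.74). Col6a6 had 37 and 25, 22 of the latter in replicate 2. Col17a1, the transmembrane collagen of epithelia, had 7 and 13, Col25a1 had 8 and 8, Col8a2 had 4 and 12, and Col10a1, a cartilage chain, had 3 and 8. These intervals cover counting error only.

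Collagen chains are modified, trimmed and crosslinked before they hold tissue together, and the genes for these steps were read from lists. Of 21 tested genes that modify and fold chains inside the cell, 0 were called by edgeR, 3 were higher at an unadjusted p under 0.05 and 1 was called higher by DESeq2. Among all 14542 genes tested, edgeR called 9.04% higher, and 2846 were higher at that unadjusted p. The log2 fold change was positive in 17 of the 21, with a median of 0.31. The most abundant were Serpinh1, the collagen chaperone (0.36, adjusted p = 0.588), P4hb, a subunit of prolyl 4-hydroxylase (0.78, adjusted p = 0.124), and Ppib, a prolyl isomerase (0.31, adjusted p = 0.353).

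Of 13 tested genes that trim procollagen and crosslink fibrils, 5 were higher and 0 lower at an unadjusted p under 0.05 in edgeR. Of all 14542 genes tested, 2846 were higher and 2423 lower at that p. DESeq2 called 3 genes of this list higher and 0 lower. By edgeR 2 of the 13 were called higher, beside 9.04% of all genes. Tll1, a procollagen C-proteinase, was at 1.87, 0.848 and 0.616 CPM in WT and 5.51, 13.2 and 12.6 CPM in sST2-KO BAT, with a log2 fold change of 3.19 (SE 0.53, adjusted p = 0.015). Adamts14, a procollagen N-proteinase, was at 6.34, 6.13 and 4.19 CPM in WT and 11.6, 24.0 and 24.7 CPM in sST2-KO BAT, with a log2 fold change of 1.84 (SE 0.36, adjusted p = 0.018). In both, every sST2-KO library was above every WT library. The more abundant Pcolce, Bmp1 and Lox, the enzyme that starts crosslinking, had log2 fold changes of -0.31, 0.49 and 1.15 (adjusted p = 0.572, 0.475 and 0.270), and Lox was at 81.7, 22.8 and 55.2 CPM in WT and 98.5, 33.1 and 222 CPM in sST2-KO BAT.

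Of 13 tested proteins that bind fibrils and regulate their assembly, 0 were called higher and 1 lower, beside 9.04% and 7.1% of all genes. Of the 13, 10 had a negative log2 fold change (median -0.44). The called gene was Tnxb, tenascin-X, which binds fibrils and whose loss makes connective tissue lax, at 190.5, 134 and 141 CPM in WT and 42.0, 67.2 and 98.5 CPM in sST2-KO BAT (log2 fold change -1.16, SE 0.32, adjusted p = 0.045). Sparc, decorin (Dcn) and biglycan (Bgn), the most abundant, had log2 fold changes of 0.04, -0.44 and 0.27 (adjusted p = 0.955, 0.461 and 0.732).

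Of 10 tested collagen receptors, 1 was called higher and 0 lower, beside 9.04% and 7.1% of all genes. Lair1, a receptor of immune cells, was at 13.2, 7.54 and 4.68 CPM in WT and 17.8, 27.4 and 75.9 CPM in sST2-KO BAT (log2 fold change 2.24, SE 0.60, adjusted p = 0.040). Its highest library was that of the macrophage sum. Of the 10 macrophage genes, 4 were called higher, among them Itgam and Lyz2, beside 9.04% of all genes. The part of macrophages in the Lair1 result was not tested. The receptors of tissue cells did not pass the test: the integrin chain Itgb1, Adgrg1 and Ddr2 had log2 fold changes of 0.22, -0.43 and 0.11 (adjusted p = 0.529, 0.283 and 0.858).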

How the data were processed

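BAT from 3 WT and 3 sST2-KO mice was sequenced as 150 bp paired-end poly-A libraries. Reads were aligned by the authors with HISAT2 (2.2.1 in the submitters' processing notes, with FastQC 0.12.1) to mm39 and counted on genes with htseq-count, and the deposited table holds raw counts per gene symbol, without normalization. Of 35976 rows, 11377 had no count, and 27 symbols had been turned into dates. They stayed in the library totals and are not named. Groups and replicate numbers came from the sample labels. The edgeR and DESeq2 p-values set the difference between the groups against the variation between mice within them. The permutation p-values rank that difference among 20 assignments of the libraries. Both rest on these 6 mice only.

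Counts were tested with edgeR 4.0.16 (R 4.3.3, filterByExpr, TMM, quasi-likelihood test, no covariate), with DESeq2 1.42.0, which the authors used, as an alternative. TMM factors ranged from 0.825 to 1.14 and the common biological coefficient of variation was 0.325. Collagen sums, shares and ratios were compared by exact permutation over 20 assignments of the libraries. Transcript lengths, positions and promoters were read from GENCODE vM39 on GRCm39. Deviations of same-numbered libraries correlated at -0.06, 0.21 and -0.31, which with 3 libraries per group cannot settle whether the mice were paired. Chi-square per degree of freedom between libraries of a group was 36.6 to 104, so none was a copy.

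The members, lists and tests were chosen with earlier results of these data known. Collagens called or with a mean of at least 10 CPM were described in full, the others by range or count. Of the lists of processing, receptor and partner genes, the called genes and the 3 most abundant were named, and of marker lists the 2 most abundant. Any other gene named was picked after its values were seen. Scaling, filters, tool, replicate block and each library left out were varied.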

Additional observations from a re-analysis of the deposited data

How the results depend on the processing

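The counts of called collagens depended on single libraries and on the tool. The 0 called higher became 1 with no filter on low counts and 3 with DESeq2, and 0 to 1 with any library left out. The 2 called lower became 1 with total counts in place of TMM and 0 with the replicate number as a block, and 0 to 2 with any library left out. The replicate block also turned Col5a1 to -0.11 and Col4a3 to 0.058 on the log2 scale and left 0 collagens called in either direction. The sample labels do not say whether same-numbered mice belong together. Total counts moved the median log2 fold change of all genes to 0.29 and turned Col6a1 to 0.065, Col18a1 to 0.17 and Col4a3 to 0.077. Of 401 values of the 29 tested genes under 14 alternatives, 355 kept direction and side of the threshold, and neither called gene changed sign.

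Leaving out 1 library at a time, the median log2 fold change ran from -0.82 (without sST2-KO replicate 3) to 0.92 for fibrillar, from -0.54 to -0.11 for basement membrane and from -0.54 to 0.07 for other collagens. The log2 ratio of sums ran from -1.01 to 1.16 for fibrillar, from -0.52 to -0.07 for basement membrane and from -0.54 to 0.12 for other collagens. The difference in share ran from -10.4 to 12.9 percentage points for fibrillar, from -11.1 to 10.03 for basement membrane and from -3.74 to 0.39 for other collagens. The log2 ratio difference ran from -0.34 to 0.072 for Col1a1 to Col1a2, from -0.047 to 0.020 for Col4a1 to Col4a2 and from -1.15 to 0.78 for Col4a1 to Col1a1. The log2 fold change ran from -1.18 to 1.27 in Col3a1, from -1.04 to 1.45 in Col1a1, from -0.76 to 1.25 in Col1a2, from -0.30 to 0.60 in Col5a3, from -0.59 to 1.07 in Col5a2, from -0.88 to 0.77 in Col5a1, from -0.63 to 0.22 in Col6a1, from -0.87 to 0.12 in Col6a2, from -0.82 to 0.018 in Col6a3, from -0.29 to 0.35 in Col18a1, from -0.80 to 0.75 in Col12a1, from -0.41 to 0.50 in Col16a1, from -0.15 to 0.32 in Col23a1, from -0.72 to 0.044 in Col4a4, from -0.26 to 0.53 in Col9a3 and from -0.62 to 0.52 in Col4a3. The call left under total counts was Col7a1, the 2 lower calls with no filter were Col7a1 and Col27a1 in place of Col28a1, and the cause of the changes was not tested. Depth limits the 11 collagens too rare to test.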
